A study of Mus musculus with 63 samples.

Results

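The comparison described here is that between the libraries labelled IFN-γ and the libraries labelled untreated (UT) in young male R1441C knock-in mice, 6 of the 63 RNA-seq libraries of the series. Members were chosen by the names of the columns in the deposited count table, 3 labelled IFN-γ (numbers 2, 3 and 4) and 3 labelled UT (numbers 2, 3 and 4). The submitters' titles number the same libraries from 1 upwards, and the column numbers are used throughout. All 6 libraries were made from peritoneal macrophages of mice that carry the R1441C change in their own Lrrk2 gene, whose zygosity the labels do not give. All mice received 3% thioglycollate 72 h before the cells were collected, together with slow-release buprenorphine against pain, and animals labelled young were 2 to 3 months of age, per the design text. Cells that adhered to the dish were kept, the others were washed off, and the dishes then received 100 U of IFN-γ or, as vehicle, water for 18 h. The comparison was set beside the same labels in wild-type B6 young males (5 libraries labelled IFN-γ and 3 labelled UT) and in knock-in old males of 18 to 21 months (5 labelled IFN-γ and 3 labelled UT). The study as a whole asked how the R1441C change alters what macrophages do (presenting antigen, releasing cytokines, taking up particles and degrading them in lysosomes) in both sexes and at both ages.

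Lrrk2 encodes a large kinase that phosphorylates Rab GTPases on membranes of the endolysosomal system, and R1441C lies in its GTPase domain. IFN-γ, the cytokine of activated T cells and natural killer cells, binds its receptor on macrophages and signals through the kinases JAK1 and JAK2. Macrophages then switch on guanylate-binding proteins such as Gbp2, the chemokine Cxcl9, the nitric oxide synthase Nos2 and the regulator Ciita, which in turn drives the genes of MHC class II. The peritoneum also holds B-1a cells, long-lived B lymphocytes that produce natural IgM, so that B cell transcripts are a usual companion of RNA from peritoneal macrophages. In RNA of a whole dish, fewer cells of a type and less RNA per cell cannot be told apart.

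The treatment labels and the levels of IFN-γ-induced genes diverged. Gbp2, a GTPase that is among the most IFN-γ-inducible genes of macrophages, had 557, 227 and 16.7 CPM (counts scaled to a common library size, with TMM factors) in the libraries labelled IFN-γ, against 47.0, 310.4 and 135 CPM in those labelled UT. The range was 4372 to 7510 CPM in the 36 libraries labelled old, under either treatment label, and 13.5 to 883 CPM in the other 21 labelled young. The libraries labelled old and young did not overlap, whatever their treatment label, and in the 6 libraries the lowest value of all belonged to a library labelled IFN-γ. Among other strata labelled young, Gbp2 ran from 24.3 to 235 CPM in knock-in females labelled IFN-γ and from 192 to 485 CPM in those labelled UT (adjusted p = 0.193, edgeR). In wild-type females it ran from 655 to 883 CPM where labelled IFN-γ and from 13.5 to 195 CPM where labelled UT (adjusted p = 0.000594, edgeR). In wild-type males it ran from 235 to 662 CPM where labelled IFN-γ and from 115 to 186 CPM where labelled UT (adjusted p = 0.482, edgeR). Of the 8 strata of genotype, sex and labelled age, the difference in Gbp2 was called in wild-type young females alone, at levels far under those of the libraries labelled old. The groups are accordingly called libraries labelled IFN-γ and libraries labelled UT, and each change printed is a difference between labels, not shown here to be an effect of IFN-γ. The sex label fitted the Y-linked gene Ddx3y, which had 60.2, 51.2 and 53.3 CPM in the libraries labelled IFN-γ and 41.3, 47.6 and 49.6 CPM in those labelled UT. Xist, the RNA of the inactive X chromosome, had 0.0287, 0.148 and 0.161 CPM in the libraries labelled IFN-γ and 0.657, 13.8 and 3.64 CPM in those labelled UT, against 1.55 to 562 CPM in the 33 libraries labelled female. Its change between the labels was -5.76 ± 1.77 log2 units (SE, n = 3 each; adjusted p = 0.606 in edgeR's quasi-likelihood test). The counts do not show the R1441C base change, so that the genotype label could not be checked.

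Depth was even, with 91.4 to 102.7 M counts per library. UT library 2 stood apart in the make-up of its RNA. Genes not annotated as protein-coding held 7.89% of its counts, against 3.06 to 3.56% in the other 5 libraries. That share includes immunoglobulin genes and genes without an annotated kind. In the same library Lars2, whose locus holds sequence like that of ribosomal RNA, had 1996 CPM, against 98.9 to 169 CPM in the others. IFN-γ library 2 had 74 genes at least 1 log2 unit above all other libraries among 9879 genes of moderate or high level. Over those genes the closest pair by root mean square difference carried different treatment labels (IFN-γ 3 and UT 3, 0.194 log2 units). The farthest pair were the libraries numbered 2 (0.537). By chi-square per degree of freedom on the counts, the closest pair shared a label (IFN-γ 3 and IFN-γ 4, 19.7), ahead of IFN-γ 3 and UT 3 (27.7). No pair agreed within counting noise, so that each was counted as its own library. The labels do not say that the libraries come from separate animals. The p-values and SEs of the main fit measure only the spread between libraries within groups. That spread was taken over all 63 libraries of the fit, not over these libraries alone.

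Immunoglobulin V segments give each library a profile of its B cell transcripts, since each B cell clone uses a single heavy and a single light chain segment. The 6 segments below carried the largest shares or the classical B-1a pairings. For each, the reference sequence (GENCODE vM21, build GRCm38) is given over the last 72 coding bases up to and with the conserved cysteine codon, in capitals, and the bases that follow it. Igkv segments lie on chromosome 6 and Ighv segments on chromosome 12.
Igkv14-126: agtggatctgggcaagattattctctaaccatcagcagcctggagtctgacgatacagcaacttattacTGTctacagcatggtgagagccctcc
Ighv11-2: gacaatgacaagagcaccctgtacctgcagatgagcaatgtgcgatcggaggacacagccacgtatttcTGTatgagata
Igkv12-44: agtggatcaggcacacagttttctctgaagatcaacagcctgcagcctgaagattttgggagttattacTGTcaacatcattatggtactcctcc
Ighv5-16: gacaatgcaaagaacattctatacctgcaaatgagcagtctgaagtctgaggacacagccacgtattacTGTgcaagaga
Igkv4-91: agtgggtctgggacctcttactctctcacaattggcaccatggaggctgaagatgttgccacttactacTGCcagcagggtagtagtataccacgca
Ighv12-3: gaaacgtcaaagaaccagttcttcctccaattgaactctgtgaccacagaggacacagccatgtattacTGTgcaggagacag
Over the 72 bases, the heavy chain segments Ighv11-2 and Ighv5-16 were 80.6% identical and the light chain segments Igkv14-126 and Igkv12-44 were 72.2% identical. The paired segments Ighv11-2 with Igkv14-126 and Ighv12-3 with Igkv4-91 are known from B-1a cells that bind phosphatidylcholine.

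The libraries labelled IFN-γ had 26107, 2607 and 3176 V-segment counts, against 701, 1857 and 1507 in those labelled UT. Igkv14-126 (chr6:67896177-67896642) and Ighv11-2 (chr12:114048241-114048704) held 42.4% and 35.6% of the V-segment counts of IFN-γ library 2. In IFN-γ libraries 3 and 4 the leading segments were instead Igkv12-44 (chr6:69814631-69815100), at 28.2% and 29.0%, and Ighv5-16 (chr12:113838526-113838983), at 14.2% and 18.5%. In these 2 libraries Igkv14-126 held 9.82% and 9.13%. UT libraries 2, 3 and 4 had 18.5%, 10.4% and 7.70% Igkv14-126 and 13.7%, 8.51% and 7.70% Ighv11-2, and UT libraries 3 and 4 had in addition 10.2% and 9.42% Igkv4-91 (chr6:68768555-68769103) with 6.30% and 5.11% Ighv12-3 (chr12:114366521-114366954). Ighv11-2 was thus the leading heavy chain segment of IFN-γ library 2 and of all 3 UT libraries, but not of IFN-γ libraries 3 and 4.

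**Figure D1:**
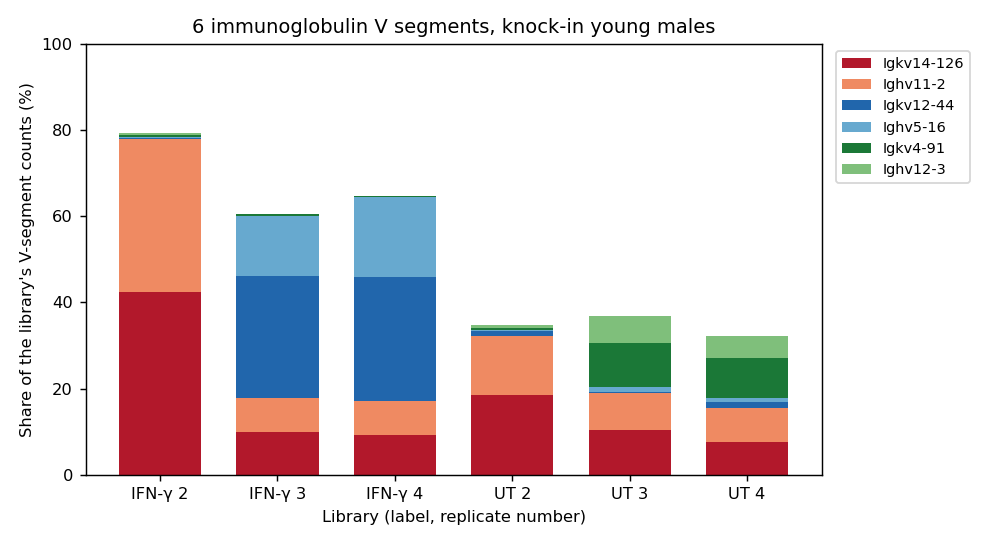
Share (%) of each library's immunoglobulin V-segment counts taken by 6 segments, for the 3 libraries labelled IFN-γ and the 3 labelled UT (x axis, label and replicate number). IFN-γ library 2 is dominated by Igkv14-126 (42.4%) and Ighv11-2 (35.6%), while IFN-γ libraries 3 and 4 share Igkv12-44 (28.2% and 29.0%) and Ighv5-16 (14.2% and 18.5%).

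The shares were also alike across labels of age. Over 215 V segments, IFN-γ library 2 correlated with old knock-in male IFN-γ library 1 at r = 0.996, and old knock-in male IFN-γ library 1 had 45.9% Igkv14-126 and 34.5% Ighv11-2. IFN-γ libraries 3 and 4 correlated with each other at r = 0.992, with old knock-in male IFN-γ library 3 at r = 0.996 and 0.989, and with old library 5 at r = 0.992 and 0.985, whereas IFN-γ library 2 correlated with each of them at r = -0.25. The old IFN-γ libraries 3 and 5 had 32.3% and 30.8% Igkv12-44 and 16% and 15.5% Ighv5-16. UT libraries 3 and 4 correlated at r = 0.838. These values are a description over segments that share a library and its depth, and a high value alone does not mark a shared source. IFN-γ library 2 also correlated at r = 0.978 with a wild-type young male UT library whose profile holds the same common B-1a pairing. For IFN-γ libraries 3 and 4 the highest r with any library outside knock-in males was 0.356 and 0.365. A shared source was not tested. With IFN-γ libraries 3 and 4 summed and counted as 1 library, an alternative chosen after the data were seen, 7 genes were called, 5 of them among the 7 named next.

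Across all genes, 7 of 22147 (0.0316%) differed between libraries labelled IFN-γ and libraries labelled UT at an adjusted p of 0.05 in edgeR's quasi-likelihood test with Benjamini-Hochberg adjustment, 5 higher and 2 lower. Bmpr1a, Clec1a, Peak1os, the pseudogene AC166110.3 and an unnamed gene rose, and Vill and the pseudogene Rps4l fell. None of the 7 is in the IFN-γ response list. Without adjustment 693 genes (3.13%) were higher and 606 (2.74%) lower at 0.05, and the median change of all genes was -0.01 log2 units. All 3 libraries labelled IFN-γ lay above all 3 labelled UT for 1267 genes (5.72%), and below them for 1098 genes (4.96%). DESeq2 called 26 genes, 17 higher and 9 lower. The calls were not stable to the choice of libraries. Without UT library 3 or without UT library 4, 0 genes were called, and without UT library 2 the fit called 3, all among the 7. Without IFN-γ library 2 it called 1, which is not among the 7.

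Bmpr1a (ENSMUSG00000021796), a type I receptor for bone morphogenetic proteins, had 10.7, 10.1 and 9.78 CPM in libraries labelled IFN-γ, against 3.95, 5.43 and 5.02 CPM in those labelled UT. The groups did not overlap, and all 3 IFN-γ libraries lay near 10 CPM. The change was 1.09 ± 0.21 log2 units (SE, n = 3 each; adjusted p = 0.0118, edgeR), and between 0.93 and 1.18 log2 units in the fits that left out libraries. With mean levels of B cell and T cell genes as covariates it was 0.87 ± 0.19 log2 units (adjusted p = 0.028, edgeR). Over the 57 other libraries, deviations of Bmpr1a from the group means correlated with those of the B cell genes at r = 0.45. The part of B cells in the change was not tested.

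Clec1a (ENSMUSG00000033082), a C-type lectin-like receptor of myeloid and endothelial cells that binds fungal melanin, had 2.99, 3.68 and 3.47 CPM in libraries labelled IFN-γ and 1.29, 1.33 and 0.791 CPM in those labelled UT. The change was 1.57 ± 0.30 log2 units (adjusted p = 0.0118, edgeR) with no overlap. Its level was low in both groups. Vill (ENSMUSG00000038775), a villin-like protein of the actin-binding villin family, had 20.6, 27.1 and 26.6 CPM in libraries labelled IFN-γ and 47.6, 47.8 and 41.5 CPM in those labelled UT. It fell by 0.88 ± 0.17 log2 units (adjusted p = 0.0118, edgeR), and every IFN-γ library lay below every UT library.

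The other calls fell on an antisense RNA, processed pseudogenes and a gene without a symbol, and the sharing of their reads with other genes was not tested. Those without a proper gene name or of pseudogene kind were named after their values were seen. Peak1os (ENSMUSG00000097111), an antisense RNA of the kinase gene Peak1, had 0.965, 0.909 and 0.916 CPM in libraries labelled IFN-γ and 0.323, 0.260 and 0.140 CPM in those labelled UT, a change of 1.95 ± 0.37 log2 units (adjusted p = 0.0118, edgeR). The strand setting of the counting is not given, so that reads of Peak1 itself could not be set aside. Peak1 had 79.4, 63.5 and 60.1 CPM in libraries labelled IFN-γ and 46.4, 57.8 and 46.1 CPM in those labelled UT. Its groups did not overlap either, and its own change of 0.43 ± 0.19 log2 units had an adjusted p of 0.839 (edgeR).

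Rps4l (ENSMUSG00000063171), a retrocopy of the ribosomal protein gene Rps4x, had 2.74, 3.67 and 3.74 CPM in libraries labelled IFN-γ and 11.9, 8.41 and 8.88 CPM in those labelled UT (-1.52 ± 0.29 log2 units, adjusted p = 0.0118, edgeR). The pseudogene AC166110.3 (ENSMUSG00000117239) had 10.6, 8.19 and 7.22 CPM in libraries labelled IFN-γ and 4.33, 3.99 and 2.7 CPM in those labelled UT (1.24 ± 0.21 log2 units, adjusted p = 0.00926, edgeR). Both are processed pseudogenes, whose reads can be shared with near-identical copies. ENSMUSG00000118607, which has no symbol in the annotation used, had 2.4, 1.80 and 1.96 CPM in libraries labelled IFN-γ and 0.519, 0.154 and 0.310 CPM in those labelled UT (2.66 ± 0.51 log2 units, adjusted p = 0.0118, edgeR). Over the 57 libraries outside the comparison, its deviations from the group means correlated with those of the B cell list at r = 0.81, a description of libraries that share their depth and cell content.

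**Figure D2:**
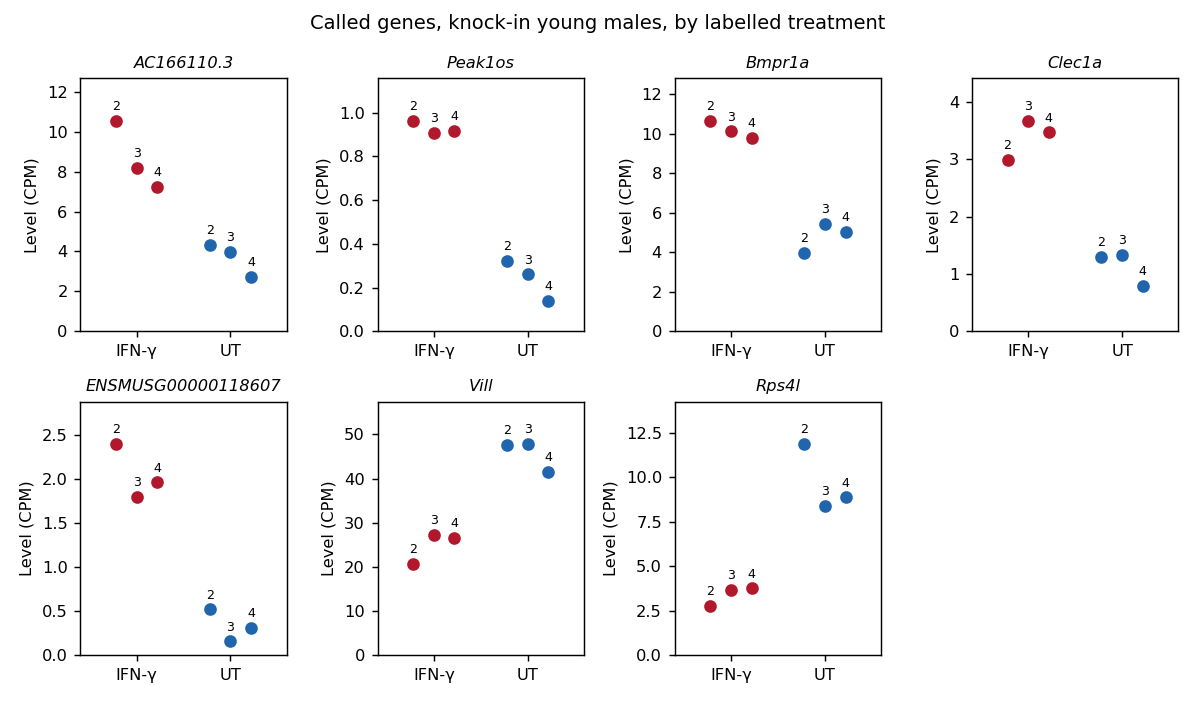
Level (CPM) of the 7 called genes in each library of knock-in young males, 3 labelled IFN-γ and 3 labelled UT, with 1 panel for each gene and separate axes. The groups do not overlap in any panel. Bmpr1a lies at 9.78 to 10.7 CPM in libraries labelled IFN-γ, and Vill at 20.6 to 27.1 CPM.

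The promoters of Bmpr1a, Vill and, as a known IFN-γ target, Gbp2 are shown over the 250 bases before the annotated start, on the strand of the gene (RefSeq, GRCm38.p6). Capitals mark a match to the motifs searched on both strands, TTCNNNGAA for the gamma-activated sequence (GAS) and GAAANNGAA for the element bound by IRF factors.
Bmpr1a: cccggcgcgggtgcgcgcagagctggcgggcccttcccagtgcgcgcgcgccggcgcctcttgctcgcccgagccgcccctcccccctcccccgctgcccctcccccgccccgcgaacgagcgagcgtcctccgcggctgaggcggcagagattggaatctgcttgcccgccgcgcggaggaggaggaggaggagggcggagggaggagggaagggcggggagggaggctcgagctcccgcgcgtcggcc
Vill: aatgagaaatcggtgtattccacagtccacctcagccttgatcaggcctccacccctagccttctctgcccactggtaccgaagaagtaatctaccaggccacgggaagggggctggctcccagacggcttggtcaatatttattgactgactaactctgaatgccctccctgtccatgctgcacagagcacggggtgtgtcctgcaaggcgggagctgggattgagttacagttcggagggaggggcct
Gbp2: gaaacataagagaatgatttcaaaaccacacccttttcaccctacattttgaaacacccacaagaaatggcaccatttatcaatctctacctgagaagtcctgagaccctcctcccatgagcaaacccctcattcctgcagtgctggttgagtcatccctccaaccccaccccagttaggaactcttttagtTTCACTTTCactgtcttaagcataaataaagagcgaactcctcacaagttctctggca
The Gbp2 window (chr3:142620413-142620662) held 1 match to GAAANNGAA, which begins 58 bases before the start, and 0 to TTCNNNGAA. The windows of Bmpr1a (chr14:34502547-34502796) and Vill (chr9:119052528-119052777) held 0 matches to either motif. Among 27025 promoters of the same length, 7.18% held TTCNNNGAA and 7.16% held GAAANNGAA. These matches describe letters only, and Clec1a, Rps4l and AC166110.3 had no entry in the promoter table.

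The direction of the 7 genes was followed in the 7 other strata of genotype, sex and labelled age, which share no library with this comparison but are part of the same fit. Called genes made up 5.81% of all tested in knock-in old females, 17.7% in knock-in young females, 0.104% in knock-in old males, 19.2% in wild-type old females, 14.7% in wild-type young females, 2.52% in wild-type old males and 0.275% in wild-type young males. Bmpr1a was higher in libraries labelled IFN-γ and called in all 7, by 0.85 to 2.03 log2 units. In wild-type young males Bmpr1a had 8.37 ± 0.351 CPM (SD, n = 5) with the IFN-γ label and 4.50 ± 0.757 CPM (n = 3) with the UT label. In knock-in old males Bmpr1a had 7.45 ± 0.888 CPM (n = 5) with the IFN-γ label and 3.76 ± 0.344 CPM (n = 3) with the UT label.

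Rps4l was lower with the IFN-γ label in all 7 strata and called in 4, Peak1os was higher in all 7 and called in 5, AC166110.3 was higher in all 7 and called in 4, and ENSMUSG00000118607 was higher in all 7 and called in 6. Vill was lower in 6 of 7 and called in 2. In wild-type young males Vill had 32.4 ± 3.10 CPM (n = 5) with the IFN-γ label and 33.6 ± 0.707 CPM (n = 3) with the UT label. Clec1a was higher in 3 of 7, which were the 3 strata labelled young, and was called in 2 of them, knock-in and wild-type young females. In knock-in old males Clec1a had 5.31 ± 1.19 CPM (n = 5) with the IFN-γ label and 6.25 ± 1.13 CPM (n = 3) with the UT label. No gene of the 7 was called in the opposite direction in any stratum.

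**Figure D3:**
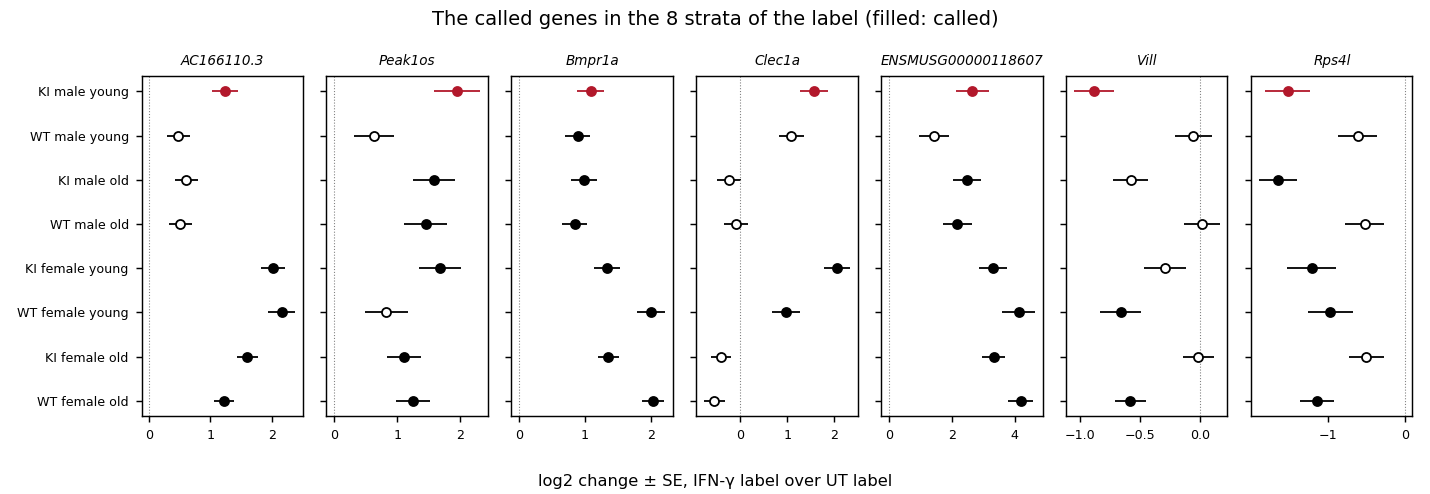
Change (log2 units ± SE, IFN-γ label over UT label) of the 7 called genes in the 8 strata of genotype, sex and labelled age, with filled points where the gene was called. Bmpr1a is filled in every stratum, and Clec1a lies to the right of 0 only in the 4 strata labelled young.

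No gene differed in its label effect from that in wild-type young males (0 of 22147, 0%, edgeR; smallest adjusted p 0.254), with 927 genes at an unadjusted p under 0.05 and 13 called by DESeq2. Likewise 0 genes (0%, edgeR) differed from knock-in old males, with a smallest adjusted p of 0.313, 1533 genes at an unadjusted p under 0.05 and 5 called by DESeq2. For Clec1a the difference from knock-in old males was 1.81 ± 0.39 log2 units (adjusted p = 0.313, edgeR). These differences are those of labels: the old knock-in male UT samples are untreated by title and description, while their treatment field names interferon-gamma.

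The next genes by p, which were not called by edgeR and were chosen after their values were seen, included Gabbr2 and Abhd17c. DESeq2 called both (adjusted p = 0.0143 and 0.0299). Gabbr2, a subunit of the GABA-B receptor, had 2.00, 2.95 and 2.43 CPM in libraries labelled IFN-γ and 10.6, 5.08 and 8.98 CPM in those labelled UT (-1.74 ± 0.41 log2 units, adjusted p = 0.133, edgeR). Abhd17c, an enzyme that removes palmitate from proteins, had 28.7, 34.7 and 34.4 CPM in libraries labelled IFN-γ and 24.6, 23.8 and 25.1 CPM in those labelled UT (0.41 ± 0.10 log2 units, adjusted p = 0.257, edgeR). In both genes the groups did not overlap.

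To separate lymphocyte transcripts from the rest, each tested gene was assigned to the lymphocyte class when it was a listed lymphocyte or antigen receptor gene or when it moved with the B cell or T cell list (r of at least 0.6) within groups in the 57 other libraries. This class held 1409 genes, 325 by list or receptor and 1084 by tracking alone. In it 229 genes (16.3%) had all 3 IFN-γ libraries above all 3 UT libraries and 17 genes lay below, against 5.72% and 4.96% of all genes. Among the 20696 genes outside the lymphocyte class and the lists of cells other than macrophages, 1037 (5.01%) lay above and 1074 (5.19%) below. They make up most of the genes tested, so that their shares could not lie far from those of all genes. Of the 7 calls, 6 were among these 20696 genes and 1, ENSMUSG00000118607, was in the lymphocyte class. The lymphocyte class took 2.82, 2.06 and 2.08% of CPM in libraries labelled IFN-γ and 2.29, 2.11 and 2.06% in those labelled UT.

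B cell genes had the highest share of members with no overlap among the 31 lists examined, although 0 of 22 were called (edgeR; 12 higher and 0 lower at an unadjusted p under 0.05; 0 called by DESeq2). All 3 libraries labelled IFN-γ lay above all 3 labelled UT for 17 of 22 (all genes 5.72%), with a median of 1.72 log2 units. Cd79a, the signalling chain of the B cell receptor, had 23.2, 9.51 and 9.48 CPM in libraries labelled IFN-γ and 4.25, 4.43 and 4.17 CPM in those labelled UT (1.71 ± 0.70 log2 units, adjusted p = 0.839, edgeR). IFN-γ library 2 was highest, and the other 2 IFN-γ libraries also exceeded every UT library.

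Tnfrsf13c, the BAFF receptor, had 4.69, 1.49 and 1.49 CPM in libraries labelled IFN-γ and 0.495, 0.433 and 0.6 CPM in those labelled UT (2.33 ± 0.75 log2 units, adjusted p = 0.653, edgeR). Pax5, the factor that holds B cell identity, had 5.12, 2.83 and 3.14 CPM in libraries labelled IFN-γ and 0.576, 0.991 and 1.02 CPM in those labelled UT (2.09 ± 0.82 log2 units, adjusted p = 0.839, edgeR). The members that did overlap were Bank1, Cd72, Fcrl1, Pou2f2 and Cd22. Cd22, a sialic acid receptor, had 92.6, 152 and 142 CPM in libraries labelled IFN-γ and 117, 134 and 133 CPM in those labelled UT, a level far above that of Cd79a in all 6 libraries. Without both libraries numbered 2, an alternative chosen after the data were seen, the median was 1.03 log2 units.

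Immunoglobulin constant regions and the J chain had 8 of 15 members above (all genes 5.72%) and 0 below, a median of 1.74 log2 units, and 0 called (edgeR; 9 higher and 0 lower at an unadjusted p under 0.05; 1 called by DESeq2). The median was 1.12 without IFN-γ library 2 and 0.91 without both libraries numbered 2. Igkc, the κ light chain constant region, had 82.7, 11.6 and 12.3 CPM in libraries labelled IFN-γ and 4.44, 5.57 and 4.12 CPM in those labelled UT (2.92 ± 0.73 log2 units, adjusted p = 0.257, edgeR). Ighm, the IgM heavy chain, had 283, 38.2 and 41.8 CPM in libraries labelled IFN-γ and 27.0, 30.0 and 26.8 CPM in those labelled UT (2.11 ± 0.76 log2 units, adjusted p = 0.794, edgeR). Ighd, the IgD heavy chain of naive B cells, was even among the IFN-γ libraries, at 6.14, 6.76 and 6.33 CPM, against 0.933, 0.760 and 1.57 CPM in those labelled UT (2.56 ± 0.78 log2 units, adjusted p = 0.606, edgeR). Ighg1 had 17 counts in all over the libraries labelled IFN-γ and 0 in those labelled UT, so that it was at least 2.46 log2 units higher when the group at 0 is given a floor of 3 counts in all.

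The V segments moved by library. Igkv14-126 had 106, 2.71 and 2.92 CPM in libraries labelled IFN-γ and 1.5, 1.86 and 1.16 CPM in those labelled UT (4.62 ± 1.02 log2 units, adjusted p = 0.0812, edgeR). Igkv12-44 had 0.267, 7.77 and 9.26 CPM in libraries labelled IFN-γ and 0.0922, 0.0674 and 0.240 CPM in those labelled UT (5.42 ± 1.25 log2 units, adjusted p = 0.120, edgeR). Their high values lay in different IFN-γ libraries, number 2 for the first and numbers 3 and 4 for the second.

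T cell genes had 11 of 30 members above (all genes 5.72%) and 0 below, a median of 0.86 log2 units and 0 called (edgeR; 4 higher and 0 lower at an unadjusted p under 0.05; 0 called by DESeq2). Without IFN-γ library 2 the median was 0.52. Cd3e, a chain of the T cell receptor complex, was near the limit of detection, at 0.172, 0.0634 and 0.282 CPM in libraries labelled IFN-γ and 0.0115, 0.0578 and 0.170 CPM in those labelled UT (1.08 ± 0.91 log2 units, adjusted p = 0.862, edgeR). Ctla4, an inhibitory receptor of T cells, had 2.21, 0.0740 and 0.201 CPM in libraries labelled IFN-γ and 0.0461, 0.0289 and 0.0500 CPM in those labelled UT (4.29 ± 1.35 log2 units, adjusted p = 0.646, edgeR). Lck, the kinase of T cell receptor signalling, had 1.80, 0.772 and 0.715 CPM in libraries labelled IFN-γ and 0.277, 0.356 and 0.560 CPM in those labelled UT (1.46 ± 0.67 log2 units, adjusted p = 0.839, edgeR). Il7r alone in the list reached 5 CPM in all 6 libraries, at 425 to 681 CPM. Of 12 natural killer and cytotoxic cell genes, Il2rb, Nkg7 and Eomes lay above (all genes 5.72%), all under 1 CPM. The median of the 12 was 0.85 log2 units with all 6 libraries and 0.03 without IFN-γ library 2.

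**Figure D4:**
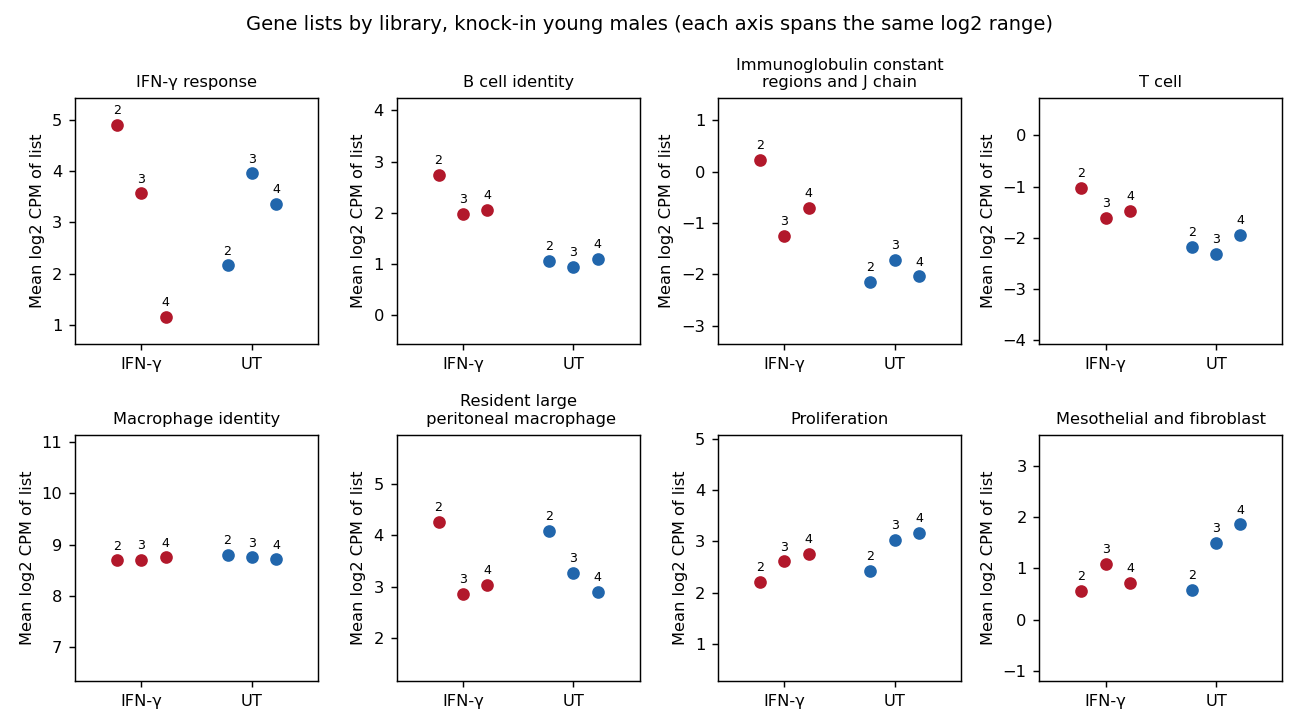
Mean log2 CPM of gene lists in each library of knock-in young males, 3 labelled IFN-γ beside 3 labelled UT, with axes that all span the same log2 range. B cell genes, immunoglobulin constant regions and T cell genes separate the labels. The IFN-γ response list runs from 1.15 to 4.89 among libraries labelled IFN-γ and from 2.16 to 3.95 among those labelled UT.

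Markers of other cells were also set beside the comparison. Among mesothelial and fibroblast genes, 4 of 16 lay below in libraries labelled IFN-γ (all genes 4.96%), with a median of -0.82 log2 units and 0 called (edgeR; 0 higher and 1 lower at an unadjusted p under 0.05; 0 called by DESeq2). Their summed level was 203, 246 and 264 CPM in libraries labelled IFN-γ and 169, 517 and 530.2 CPM in those labelled UT, and UT library 2 was the lowest of the 6. The keratin Krt8 had 1.22, 1.68 and 1.04 CPM in libraries labelled IFN-γ and 1.77, 2.14 and 5.91 CPM in those labelled UT (-1.32 ± 0.58 log2 units, adjusted p = 0.839, edgeR). Without UT library 2, 11 of 16 lay below, against 11.3% of all genes. Mast cell genes (0 of 12 above or below), neutrophil genes (1 of 8 each way) and eosinophil genes (0 of 4) did not separate the labels with all 6 libraries. Of 10 dendritic cell genes, Zbtb46 and Ccl17 lay below. The shares of all genes were 5.72% above and 4.96% below. Without IFN-γ library 2, 7 of 12 mast cell genes lay below, against 9.88% of all genes, with a median of -0.90 in place of 0.18. No tested member of these lists was at 0 in all 6 libraries, and the part of other cells in the results was not tested.

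Macrophage identity genes were at 5 CPM or more in all 6 libraries for 15 of 15, with a median change of -0.04 log2 units and 0 called (edgeR; 0 at an unadjusted p under 0.05). Lyz2, the macrophage lysozyme, had 20910, 27546 and 26720 CPM in libraries labelled IFN-γ and 33160, 25680 and 25732 CPM in those labelled UT (-0.17 ± 0.14 log2 units, adjusted p = 0.862, edgeR). Csf1r, the receptor for the growth factor CSF1, had 1088, 1044 and 1017 CPM in libraries labelled IFN-γ and 1283, 1089 and 1146 CPM in those labelled UT (-0.16 ± 0.17 log2 units, adjusted p = 0.883, edgeR). It was the only member whose groups did not overlap (all genes 4.96% below). The 17 genes of resident large peritoneal macrophages had a median of 0.08 log2 units with all 6 libraries, but -0.43 without IFN-γ library 2 and 0.41 without UT library 2. With all 6 libraries, the 12 genes of monocyte-derived macrophages had a median of -0.17, and 0 members of either list lay above or below.

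The IFN-γ response list did not separate the labels. Of 37 genes, 33 had a positive change, with a median of 0.63 log2 units, but 0 lay above or below in all libraries and 0 were called (edgeR; 0 higher and 1 lower at an unadjusted p under 0.05; 0 called by DESeq2). The mean log2 CPM of the list was 4.89, 3.56 and 1.15 in libraries labelled IFN-γ and 2.16, 3.95 and 3.36 in those labelled UT. IFN-γ library 2 was the highest of the 6 and IFN-γ library 4 the lowest. Without IFN-γ library 2 the median turned to -0.33, and without both libraries numbered 2 to -0.79.

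Changes of the 37 genes ran from -1.90 to 2.31 log2 units, and 4 of them were negative. Gbp2, Cxcl9 and Nos2, all with positive changes when all 6 libraries were used, followed the same order of libraries. Gbp2 changed sign with the libraries used: 0.70 ± 0.61 log2 units with all 6 (adjusted p = 0.863, edgeR) and -0.40 without IFN-γ library 2. Cxcl9, a chemokine that attracts T cells, had 268, 41.9 and 0.956 CPM in libraries labelled IFN-γ and 8.35, 60.4 and 36.7 CPM in those labelled UT (1.56 ± 0.89 log2 units, adjusted p = 0.846, edgeR), and -0.69 without IFN-γ library 2. Nos2, the inducible nitric oxide synthase, had 50.3, 2.98 and 0.221 CPM in libraries labelled IFN-γ and 1.36, 6.49 and 2.92 CPM in those labelled UT (2.31 ± 1.16 log2 units, adjusted p = 0.845, edgeR). In all 3 genes the ranges of both labels overlapped.

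Gbp7, a guanylate-binding protein, had 54.1, 25.2 and 11.7 CPM in libraries labelled IFN-γ and 7.54, 31.4 and 17.2 CPM in those labelled UT (0.70 ± 0.38 log2 units, adjusted p = 0.846, edgeR). Of the 11 genes of the IFN-γ receptor and its signalling chain, Pias1, a SUMO ligase, lay above (all genes 5.72%). It had 53.4 to 55.0 CPM in libraries labelled IFN-γ and 51.0 to 53.2 CPM in those labelled UT (adjusted p = 0.884, edgeR). Socs3, a feedback inhibitor of JAK kinases, had 64.3, 33.6 and 60.7 CPM in libraries labelled IFN-γ and 36.2, 40.3 and 31.7 CPM in those labelled UT (0.55 ± 0.20 log2 units, adjusted p = 0.798, edgeR). The list of 34 genes stimulated by type I interferon had a median of 0.04, with 0 above or below, and a median of -0.24 without IFN-γ library 2.

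Of the 13 genes of MHC class II presentation, 4 lay above (H2-Ob, H2-Oa, H2-Eb2 and H2-DMb2; all genes 5.72%), with a median of 0.27 log2 units and 0 called (edgeR; 0 at an unadjusted p under 0.05; 0 called by DESeq2). H2-Ob, a chain of the peptide-loading regulator H2-O of B cells, had 8.92, 4.50 and 4.50 CPM in libraries labelled IFN-γ and 1.66, 2.06 and 2.48 CPM in those labelled UT (1.53 ± 0.77 log2 units, adjusted p = 0.845, edgeR). The median of the list was -0.07 without IFN-γ library 2 and -0.13 without both libraries numbered 2. All 4 were in the lymphocyte class, with an r of at least 0.75 to the B cell list in the other libraries. The 23 genes of MHC class I presentation had a median of 0.01, with H2-T22 below (all genes 4.96%) and Erap1, a peptide-trimming peptidase, above (all genes 5.72%). Erap1 had 87.2, 81.7 and 80.1 CPM in libraries labelled IFN-γ and 56.9, 77.4 and 74.7 CPM in those labelled UT (0.25 ± 0.13 log2 units, adjusted p = 0.845, edgeR).

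Among 14 costimulatory and checkpoint genes, Tnfsf4 and Tnfsf9 lay above (all genes 5.72%). Tnfsf4, the OX40 ligand, had 20 counts over the libraries labelled IFN-γ and 0 over those labelled UT, at least 2.7 log2 units higher with the same floor of 3 counts in all (adjusted p = 0.839, edgeR). Cd274, which encodes PD-L1, had 159, 116 and 89.3 CPM in libraries labelled IFN-γ and 77.3, 107 and 97.9 CPM in those labelled UT (0.37 ± 0.18 log2 units, adjusted p = 0.845, edgeR). Cytokine genes (17, median 0.19) and chemokine genes (17, median 0.14) had 0 members above or below. Cxcl3, a neutrophil chemokine, was high in IFN-γ library 4 alone, at 0.382, 0.656 and 6.72 CPM in libraries labelled IFN-γ and 0.991, 0.279 and 0.310 CPM in those labelled UT (2.30 ± 0.89 log2 units, adjusted p = 0.839, edgeR).

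The study's interest in lysosomes and uptake was covered by 4 lists. The 58 lysosomal hydrolases and membrane proteins had a median of -0.00 log2 units, with 1 above, the thioesterase Ppt1, and 1 below (all genes 5.72% and 4.96%). The 18 V-ATPase subunits had a median of 0.00 with 0 above or below. Lamp2, a lysosomal membrane protein, had 802, 917 and 879 CPM in libraries labelled IFN-γ and 689.9, 812 and 779.7 CPM in those labelled UT (0.19 ± 0.10 log2 units, adjusted p = 0.846, edgeR). The summed level of the 58 genes was 104683, 135484 and 134981 CPM in libraries labelled IFN-γ and 133571, 127426 and 127198 CPM in those labelled UT, lowest in IFN-γ library 2. Without that library, 24 of 58 lysosomal genes and 9 of 18 V-ATPase subunits lay above, against 14.9% of all genes, with medians of 0.10 and 0.15 and 0 called. In efferocytosis and scavenging with all 6 libraries, the integrin chain Itgav lay above (all genes 5.72%) and Tyro3 and Mfge8 below (all genes 4.96%) among 22 genes. Mfge8, a bridge between macrophages and dying cells, had 407, 1081 and 1031 CPM in libraries labelled IFN-γ and 1583, 1194 and 1195 CPM in those labelled UT (-0.66 ± 0.43 log2 units, adjusted p = 0.846, edgeR). Of 16 Fcγ and Toll-like receptors, Tlr4, Tlr7 and Tlr8 lay above (all genes 5.72%). Tlr4, the receptor for endotoxin, had 73.4, 70.9 and 77.6 CPM in libraries labelled IFN-γ and 43.4, 67.9 and 64.6 CPM in those labelled UT (0.33 ± 0.18 log2 units, adjusted p = 0.846, edgeR).

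Lrrk2 itself had 47.6, 28.7 and 23.8 CPM in libraries labelled IFN-γ and 23.5, 29.1 and 23.4 CPM in those labelled UT (0.40 ± 0.30 log2 units, adjusted p = 0.852, edgeR). IFN-γ library 2 alone lay above the rest, and without both libraries numbered 2 the change was -0.00072 log2 units. Of 19 genes of LRRK2 and its Rab substrates and partners, Rab8b lay above (all genes 5.72%) and Rab3a below (all genes 4.96%), with a median of 0.03. Rab8b, a Rab substrate, had 367, 365 and 391 CPM in libraries labelled IFN-γ and 293, 360.1 and 319 CPM in those labelled UT (0.21 ± 0.11 log2 units, adjusted p = 0.846, edgeR).

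All 34 proliferation genes had a negative change, with a median of -0.38 log2 units, 6 lying below in libraries labelled IFN-γ (all genes 4.96%) and 0 called (edgeR; 0 at an unadjusted p under 0.05; 0 called by DESeq2). The 6 were E2f1, Tk1, Mcm7, Birc5, Mcm5 and Aurkb. E2f1, a factor that opens the S phase, had 23.7, 24.2 and 25.6 CPM in libraries labelled IFN-γ and 29.3, 28.3 and 26.3 CPM in those labelled UT (-0.19 ± 0.11 log2 units, adjusted p = 0.846, edgeR). Tk1, the thymidine kinase of dividing cells, had 4.91, 4.56 and 4.91 CPM in libraries labelled IFN-γ and 5.58, 6.74 and 6.37 CPM in those labelled UT (-0.38 ± 0.24 log2 units, adjusted p = 0.846, edgeR). Without UT library 2, 33 of 34 lay below, against 11.3% of all genes, with a median of -0.58 and 0 called.

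**Figure D5:**
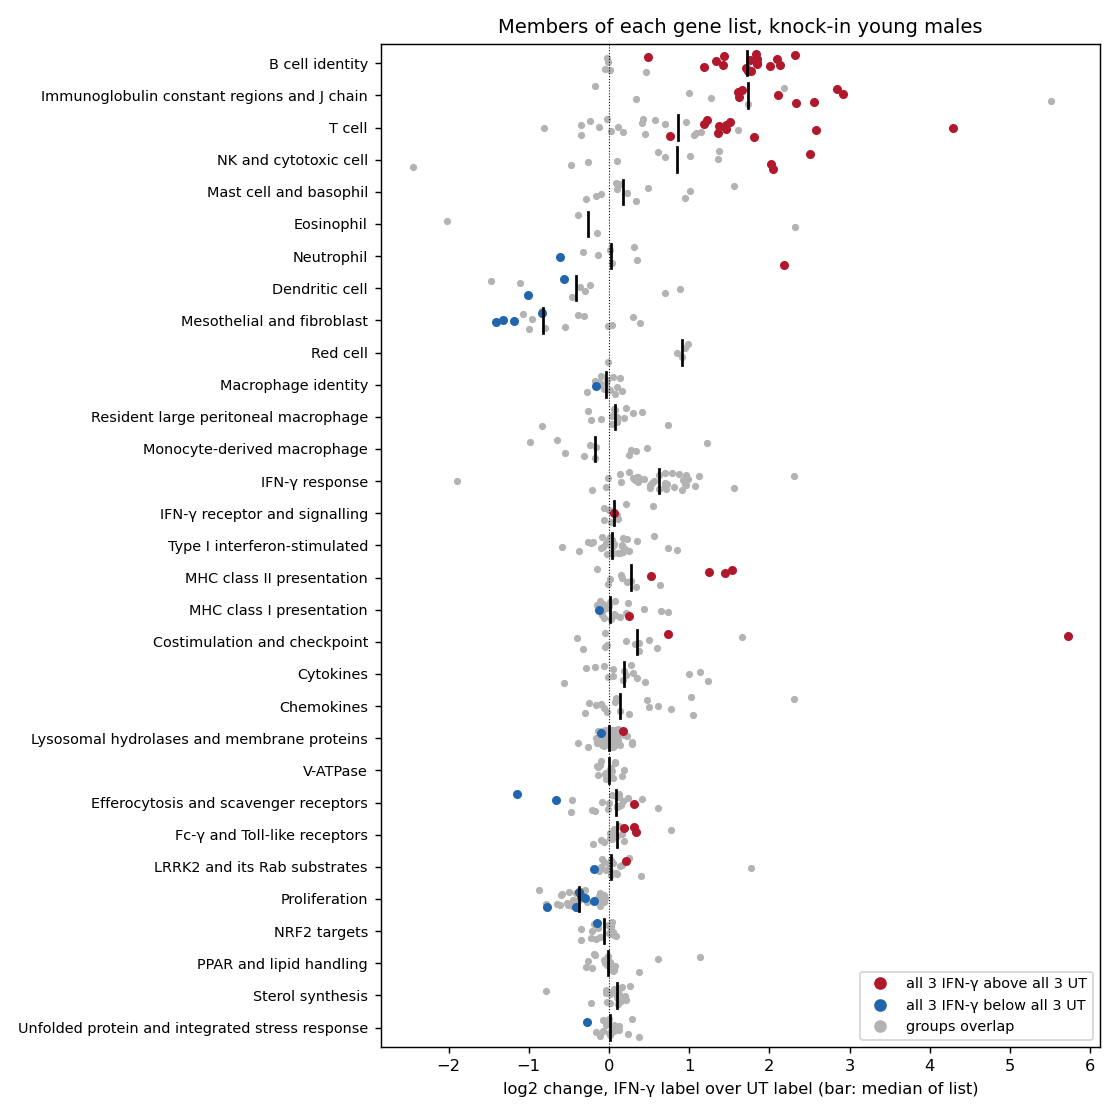
Change (log2 units, IFN-γ label over UT label) of each tested member of the gene lists in knock-in young males, with a bar at the median of each list. Red and blue points mark members whose 3 IFN-γ libraries lie all above or all below the 3 UT libraries. They are frequent in the B cell list (17 of 22) and absent in the IFN-γ response list (0 of 37).

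A further 4 lists had medians close to 0. The 18 NRF2 targets had a median of -0.06 log2 units, the 19 genes of PPAR and lipid handling -0.01, the 21 genes of sterol synthesis 0.10 and the 22 stress response genes (unfolded proteins and integrated stress) 0.01. Each list had at most 1 member apart (all genes 5.72% above and 4.96% below). The list of 5 red cell genes had a median of 0.91 log2 units, and -0.77 without IFN-γ library 2. The α-globin gene Hba-a1 was high in both libraries numbered 2, at 17.1, 2.36 and 2.03 CPM in libraries labelled IFN-γ and 7.56, 0.991 and 2.99 CPM in those labelled UT (0.91 ± 1.4 log2 units, adjusted p = 0.926, edgeR). Library 2 was the highest under either label.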

How the data were processed

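Whole-number counts of reads were deposited by the authors for each gene in each library, next to an FPKM table of the same libraries, per the file headers. The submitters' processing notes name STAR 2.7.9a, DESeq2 1.40.2 and GRCm39. Neither the read counter nor its strand setting is given there. The deposited FPKM equalled the counts up to 1 factor per gene and 1 per library (14121 genes, largest SD of the log ratio 1.46e-09) and were not tested. Symbols were found for 52073 of 56748 genes in a GRCm38 table, which served for names. Gene kinds came from GENCODE vM21, or from RefSeq for genes absent there, and genes in neither had no kind. The members, lists and tests were chosen with earlier results of these data known.

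Counts of 63 libraries (73.6 to 106.6 M, median 98.2 M) were fitted with edgeR 4.0.16 in R 4.3.3 (quasi-likelihood F test, TMM, filterByExpr with 16 groups, 1 coefficient per group), with Benjamini-Hochberg adjustment over 22147 genes and calls at 0.05. Levels are CPM. DESeq2 1.42.0, other scalings and filters, lymphocyte covariates, fits of the 6 libraries alone and fits without libraries were alternatives. On simulated counts with 3 libraries a side for this comparison (21778 genes), the test called 55.2% of 67 genes changed 1.5-fold, 85.1% of 67 changed 2-fold and 97% of 66 changed 4-fold. Of its 163 calls, 5 were unchanged genes. Changed genes had at least 1 CPM in the UT group. Each count was drawn independently, so deviations shared by many genes of a library, as in the real libraries, were not simulated. Named genes were Lrrk2, Gbp2, Cxcl9, Cd79a, Cd3e, Xist and Ddx3y, up to 12 called genes each way by size at 1 CPM or more, the same at 5 CPM or more outside the lymphocyte class, up to 4 members of each of 31 lists by smallest p, and up to 4 called genes each way for each difference between strata. Some members of lists whose groups did not overlap were also named, after their values were seen. Replicate numbers were not treated as pairs. A few results are not reported here.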

Additional observations from a re-analysis of the deposited data

How the results depend on the processing

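The count of genes called for the label effect, 7, was 7 with DESeq2 size factors and 7 with no filter on low counts, 26 with DESeq2, 44 with B cell and T cell scores as covariates, 18 with edgeR outside its legacy mode, and 0 in the fit of the 6 libraries alone. Leaving out each library in turn gave 0 to 7, and leaving out both libraries numbered 2 gave 0. The last setting, the legacy setting and the joining of IFN-γ libraries 3 and 4 (7 calls) were chosen after the data were seen, and the cause of these differences was not tested. For the difference from wild-type young males (0 calls), DESeq2 called 13, the covariates 3, and leaving out libraries 0 to 1. For the difference from knock-in old males (0 calls), DESeq2 called 5 and leaving out libraries gave 0 to 1. With the replicate number as a block in the 6 libraries, 0 genes were called, with 912 at an unadjusted p under 0.05 against 837 without it. Libraries of the same number did not deviate together (r = -0.17, 0.09 and 0.05 over 9879 genes), so the numbers were not taken as pairs.

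Directions turned for 3 named genes, none of them called. The log2 change of Gbp2 was -0.14 with the block and -0.87 without both libraries numbered 2, and leaving out each library in turn gave -0.40 (without IFN-γ library 2) to 1.55 (without UT library 3). That of Cxcl9 was -0.38 with the block and -1.18 without both libraries numbered 2, and leaving out the same libraries gave -0.69 to 2.20. That of Lrrk2 was -0.034 with the covariates and -0.00072 without both libraries numbered 2. Of the other values of named genes under the alternatives, 150 kept direction and call status, and 52 kept direction and lost the call. The 150 include genes not called in the main fit, which had no call to lose. All 52 lost calls fell on the 7 called genes. These kept all 7 calls under DESeq2, 3 without UT library 2 and 0 in the fit of the 6 libraries alone.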
